A study of Homo sapiens with 16 samples.

Results

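The genes described here are 10 targets of the transcription factor NRF2: the aldo-keto reductases AKR1B10, AKR1C1, AKR1C2 and AKR1C3, the quinone reductase NQO1, the glutathione synthesis enzymes GCLC and GCLM, the redoxin enzymes TXNRD1 and SRXN1, and the heme oxygenase HMOX1. They were picked by symbol as known targets, with earlier results of these data in view, from the 26229 genes of the deposited count table. All 10 were listed, and all 10 passed the filter on low counts that left 14673 genes for testing.

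NRF2, encoded by NFE2L2, is the main activator of the response to oxidants and electrophiles. In unstressed cells KEAP1 binds NRF2 and hands it to a CUL3 and RBX1 ubiquitin ligase for destruction, and oxidants or electrophiles that modify KEAP1 let NRF2 build up. Nuclear NRF2 pairs with a small MAF protein (MAFF, MAFG or MAFK) on antioxidant response elements, short DNA motifs near its target genes, while BACH1 competes for the same sites. Keratinocytes form the outer barrier of the body and use this pathway against sunlight, air and chemicals.

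The RNA-seq libraries came from A431 (epidermoid carcinoma) and HaCaT (immortalised, non-tumorigenic keratinocytes), both grown in DMEM with 10% FCS. The question was which genes depend on YAP, encoded by YAP1, a transcriptional co-activator that the Hippo pathway restrains. Each line gave 1 library with a control siRNA (siCTRL), 3 with siRNA against YAP1 (siYAP), 1 with an empty expression vector and 3 with YAP5SA, a constitutively active YAP1 mutant carried on a vector, so that 16 libraries formed 8 groups. The siRNAs were given in 2 transfections 24 h apart, with RNA taken 48 h after the second. The methods speak of biological triplicates, but a control group in the labels was 1 library, so that the spread between control cultures was not measured. Further, siYAP and YAP5SA libraries differed in the means of delivery as well as in YAP.

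Levels are counts per M of assigned read pairs (CPM) after TMM scaling, a correction for library composition. Depth ranged from 18115624 to 46791673 assigned pairs. The floor, 3 counts for a gene with none, was 0.063 to 0.164 CPM and covers counting error only. Genes were tested with the edgeR quasi-likelihood test over all 16 libraries and called at a Benjamini-Hochberg FDR under 0.05 and a logCPM above 1. Some counts of genes at an unadjusted p under 0.05 are also given. The share of all genes at that p was not computed, so such counts show no excess. Changes are log2 fold changes ± SE, and the p-values measure the spread between these samples, since nothing in the labels says that replicates were separate cultures. In bulk RNA, fewer cells of one kind and less RNA per cell cannot be told apart.

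YAP1 followed the labels in every library. It was lower in every siYAP library (5.04 to 6.99 CPM in A431 and 21.6 to 23.2 CPM in HaCaT cells) than in the siCTRL library of the line (94.2 and 254 CPM). It was higher in every YAP5SA library (1494 to 3244 CPM and 7546 to 22243 CPM) than with the empty vector (124 and 423 CPM). YAP1 counts in the YAP5SA libraries include the construct. The epidermal markers KRT5, KRT14, TP63, SFN and CDH1 had 102 CPM or more in all 16 libraries (the lowest was SFN), and EGFR, which is amplified in A431 cells, had 749.6 to 1357 CPM there and 297 to 557 CPM in HaCaT cells. The 9 markers of fibroblasts, leukocytes, endothelium and melanocytes were at 7.10 CPM (VWF in HaCaT siCTRL) or lower.

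The sequences bear on possible NRF2 sites near these genes and on how well their reads can be told apart. A loose form of the core of the antioxidant response element, TGANNNNGC, was searched on both strands of the RefSeq promoter table (GRCh38.p14). That pattern leaves every base between TGA and GC free, so a match need not be an element that NRF2 binds. The table holds 250 bases before and 50 bases after each start. The table matched 8 of the 10 genes, with 10 promoters, of which 6 held a match (60%), beside 41.8% of all 35116 promoters. AKR1B10 and HMOX1 were not matched. The AKR1C3, GCLC and SRXN1 windows held no match, which says nothing about sites elsewhere. The AP-1 motif TGANTCA, which can overlap such an element, was in none of the 10 promoters and in 7.71% of all promoters. GCLM held 2 matches, and TXNRD1 held 4 in its 2 promoters. The TXNRD1 matches TGACTTCGC and TGAGCAGGC, not shown, read on the strand of the gene. The lines below show 1 match per gene on the strand of the gene, with 8 bases on each side. Capitals mark the bases of the motif, which reads from the opposite strand in the matches shown.
AKR1C1, chr10:4963366-4963390, plus strand: ggggcgttGCCAGCTCAttgctctt
AKR1C2, chr10:5003886-5003910, minus strand: ggggcgttGCCAGCTCAttgctctt
NQO1, chr16:69726663-69726687, minus strand: ctggagctGCAGCCTCAgcatcctc
GCLM, chr1:93909448-93909472, minus strand: cgatttctGCTTAGTCAttgtcttc
TXNRD1, chr12:104286922-104286946, plus strand: ggatttctGCTTTGTCAttctgact

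The AKR1C1 and AKR1C2 windows are the same letter for letter, at 41 and 45 bases before the start of the genes. AKR1C1, AKR1C2 and AKR1C3 follow each other in that order on chromosome 10. Their coding sequences, read from GENCODE v29 on GRCh38, have 972 bases each. AKR1C1 and AKR1C2 were identical at 953 of those bases (98%), and 33.6% of the 75-base windows of AKR1C1 occur unchanged in AKR1C2. AKR1C1 and AKR1C3 were identical at 893 bases (91.9%), with 7.68% of such windows shared. The windows stand for single reads of the coding sequence, while the libraries held read pairs. Pairs whose 75 bp reads both fall in shared stretches can be assigned to the wrong gene. The split between AKR1C1 and AKR1C2 is thus less certain than their sum. Coding bases 111 to 140 are one of the stretches that separate the 3 genes, and capitals mark the bases that differ among them.
AKR1C1: cACCaaattGgcaatTgaagcTggCttccG
AKR1C2: cGTCaaattGgcaatAgaagcCggGttccA
AKR1C3: cACAaaattAgcaatAgaagcTggGttccG

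**Figure D1:**
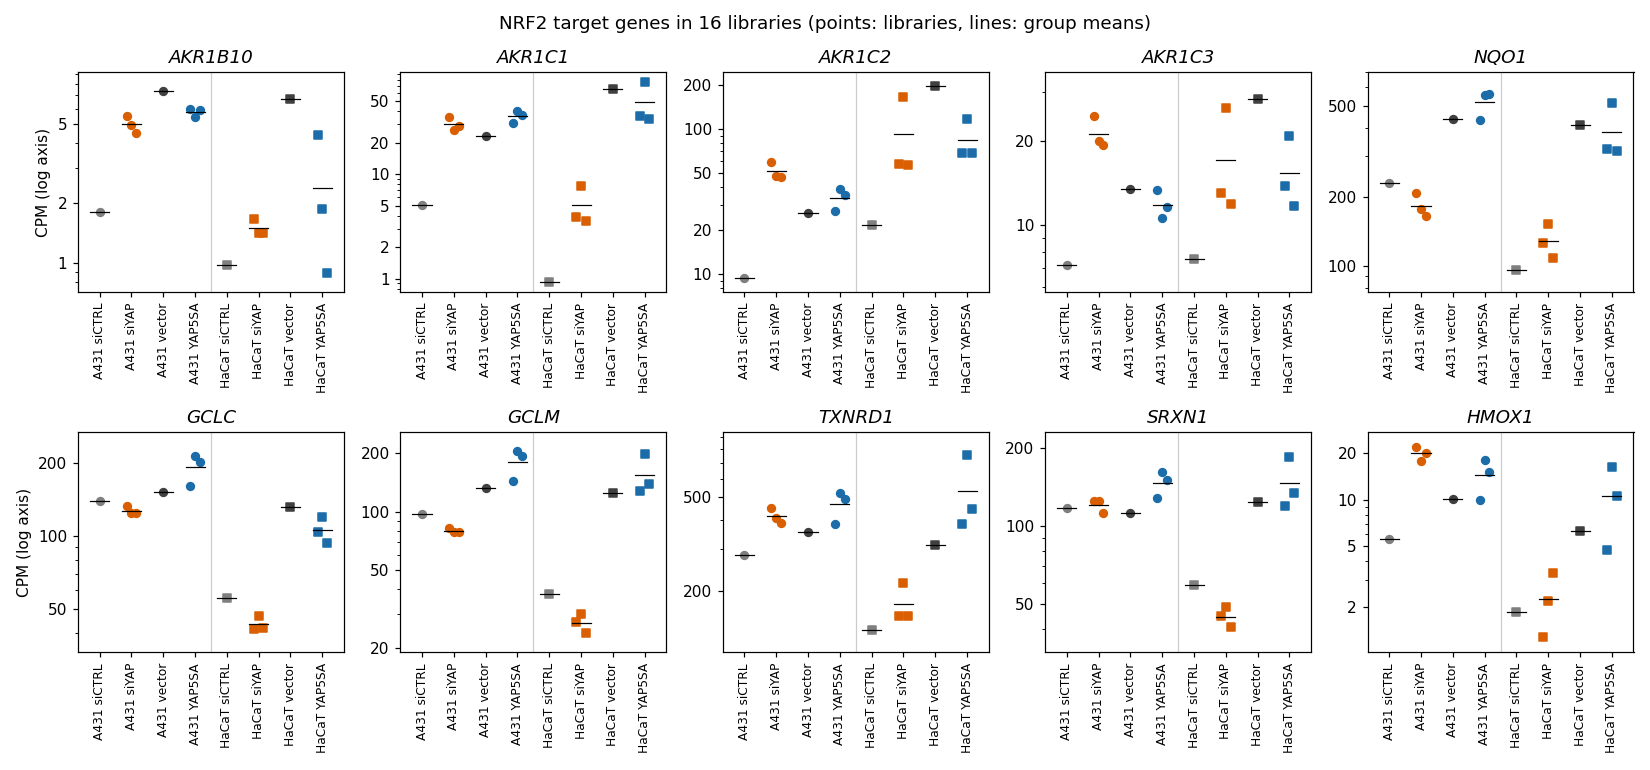
CPM of each gene (log axis) in each library; circles are A431 and squares HaCaT libraries, colours are the 4 treatments and lines are group means. The 3 AKR1C genes lie above siCTRL in all siYAP libraries of both lines, and in HaCaT cells the empty vector library lies above siCTRL for all 10 genes.

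The comparison of siYAP with siCTRL asked which genes depend on YAP. The 3 AKR1C genes, which reduce ketosteroids, prostaglandins and reactive carbonyls, rose over both lines, by 5.64-fold (AKR1C1), 4.81-fold (AKR1C2) and 2.58-fold (AKR1C3). They were the 3 genes called of the 10, with none called lower, beside 5.30% of all tested genes called higher and 13.0% called either way. The other 7 genes, AKR1B10 among them, were not called. The median log2 fold change of the 10 genes was 0.75, beside 0.04 over all genes tested.

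AKR1C1, which inactivates progesterone, had 5.04 CPM in the siCTRL library beside 34.9, 26.3 and 29.1 CPM after siYAP in A431 cells. It had 0.93 CPM in the siCTRL library beside 3.87, 7.67 and 3.57 CPM after siYAP in HaCaT cells. All 6 siYAP libraries lay above the control of their line. The rise in A431 cells was called (2.58 ± 0.54, FDR 0.016). That in HaCaT cells was of like size but was not called (2.41 ± 0.69, FDR 0.059), with 17 counts behind the control value. Over both lines it was 2.50 ± 0.43 (FDR 0.00279).

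AKR1C2, which reduces the androgen dihydrotestosterone, had 9.40 CPM in the siCTRL library beside 59.3, 47.4 and 47.0 CPM after siYAP in A431 cells. Its HaCaT values were 21.9 CPM in the siCTRL library beside 57.0, 165 and 56.3 CPM after siYAP, so that replicate 2 stood far above the other two. The rise was called in A431 cells (2.45 ± 0.61, FDR 0.0369) and missed the threshold in HaCaT cells (2.08 ± 0.58, FDR 0.0548). Without any 1 of the A431 siYAP replicates the A431 call was lost (FDR 0.058 to 0.0782), and without any 1 of the HaCaT siYAP replicates AKR1C2 was called in HaCaT cells (FDR 0.0371 to 0.043), with a rise of 1.37 where replicate 2 was left out. Over both lines the rise was 2.26 ± 0.42 (FDR 0.0045).

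AKR1C3, which forms testosterone and prostaglandin F, had 7.20 CPM in the siCTRL library beside 24.6, 20.0 and 19.3 CPM after siYAP in A431 cells, and 7.59 CPM against 13.0, 26.3 and 11.9 CPM in HaCaT cells. Again every siYAP library lay above its control, and again HaCaT replicate 2 was the highest. The rise over both lines was called (1.37 ± 0.32, FDR 0.0137). Neither line alone reached the threshold, at 1.57 ± 0.45 (FDR 0.0605) in A431 and 1.16 ± 0.44 (FDR 0.154) in HaCaT cells. When siCTRL and the empty vector library served as 2 controls, none of the 3 calls over both lines held: AKR1C1 stood at -0.83 (FDR 0.388), AKR1C2 at 0.64 (FDR 0.368) and AKR1C3 at 0.48 (FDR 0.317).

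AKR1B10, a reductase of retinal and lipid aldehydes from another branch of the family, was not called in either line. It had 1.81 CPM in the siCTRL library beside 5.52, 4.96 and 4.49 CPM after siYAP in A431 cells (1.46 ± 0.64, FDR 0.203), and 0.98 CPM against 1.66, 1.41 and 1.42 CPM in HaCaT cells (0.61 ± 0.70, FDR 0.698). All 6 siYAP libraries lay above their control, at levels where a control rested on 37 and 18 counts. HMOX1, which opens heme to biliverdin and releases iron, had 5.53 CPM in the siCTRL library beside 22.0, 17.7 and 20.2 CPM after siYAP in A431 cells (1.85 ± 0.62, FDR 0.103). In HaCaT cells the siYAP libraries, at 1.28, 2.19 and 3.34 CPM, lay on both sides of the control at 1.86 CPM (0.30 ± 0.68, FDR 0.862).

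The remaining genes moved less. NQO1, which reduces quinones by transfer of an electron pair, had 231 CPM in the siCTRL library beside 209, 177 and 165 CPM after siYAP in A431 cells (-0.33 ± 0.26, FDR 0.500). In HaCaT cells NQO1 had 96.1 CPM and 126, 152 and 109 CPM (0.42 ± 0.27, FDR 0.431), so that the siYAP libraries lay below the control in A431 and above it in HaCaT cells. The difference of the effect between the lines was not called (-0.75 ± 0.38, FDR 0.482).

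GCLC and GCLM, the catalytic and modifier subunits of the enzyme that limits glutathione synthesis, lay below siCTRL in all 6 siYAP libraries. GCLC had 139 CPM against 133, 125 and 124 CPM in A431 cells, and 55.6 CPM against 41.5, 46.9 and 41.6 CPM in HaCaT cells. GCLM had 97.6 CPM against 82.2, 78.3 and 78.4 CPM in A431 cells, and 37.7 CPM against 27.0, 29.7 and 23.7 CPM in HaCaT cells. None of the 4 differences was called, and GCLM in HaCaT cells had the largest, -0.49 ± 0.23 (FDR 0.260).

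TXNRD1, the cytosolic thioredoxin reductase, had 283 CPM in the siCTRL library beside 450, 406 and 388 CPM after siYAP in A431 cells (0.55 ± 0.32, FDR 0.337), and 136 CPM against 156, 215 and 156 CPM in HaCaT cells (0.36 ± 0.32, FDR 0.589). SRXN1, which repairs over-oxidised peroxiredoxins, had 117 CPM and 125, 125 and 113 CPM in A431 cells (0.05 ± 0.21, FDR 0.933). The HaCaT values of SRXN1 were 59.5 CPM in the siCTRL library beside 44.8, 48.5 and 40.6 CPM after siYAP (-0.41 ± 0.21, FDR 0.281). TXNRD1 lay above the control in all 6 siYAP libraries, whereas SRXN1 straddled it in A431 and lay below it in HaCaT cells.

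Within a single line the members called were 2 of 10 in A431 cells, both higher, where 5.60% of tested genes were called and 1.81% called higher, and 0 of 10 in HaCaT cells, where 5.67% were. In HaCaT cells 3 members had an unadjusted p under 0.05, a count with no share of all genes to set beside it. DESeq2 called 2 members there (AKR1C1 and AKR1C2). In each line all 3 siYAP libraries lay above siCTRL for 6 genes and below it for 3, beside 36.5% of genes above and 38.1% below in A431 cells, and 35.7% above and 36.5% below in HaCaT cells. No member differed between the lines in its response to siYAP, where 0.170% of genes did, and none had an unadjusted p under 0.05 for that difference. DESeq2 also called none there.

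**Figure D2:**
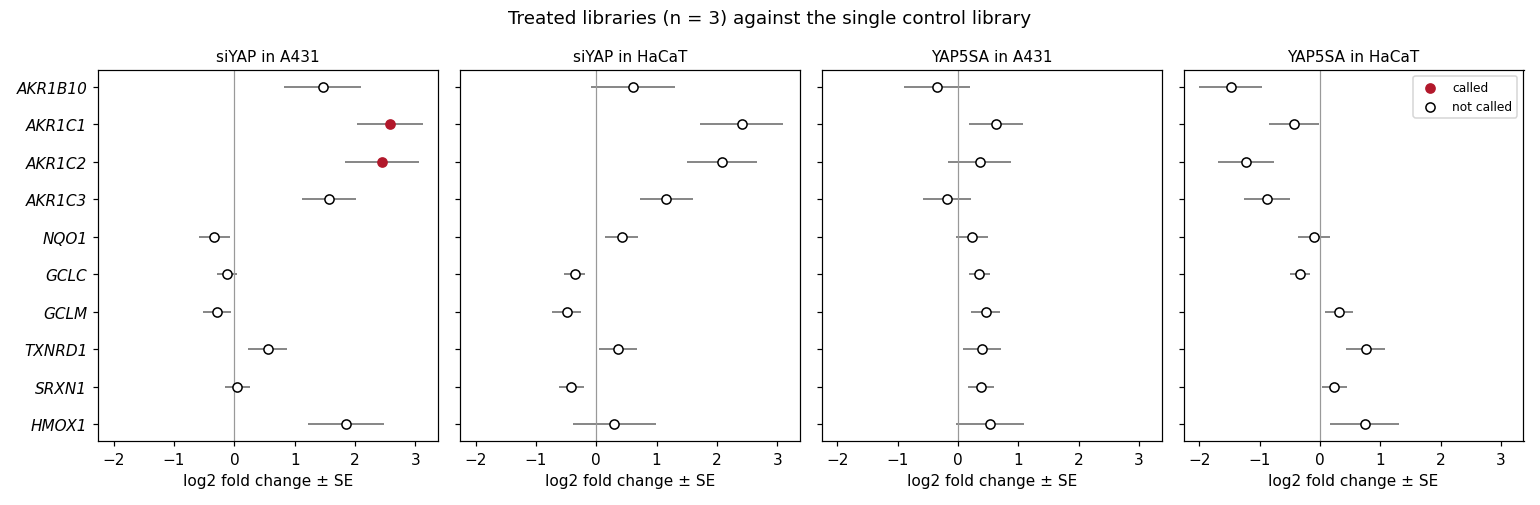
Log2 fold change ± SE of each gene in the 4 comparisons of 3 treated libraries with the single control library of the line; filled points are called. AKR1C1 (2.58) and AKR1C2 (2.45) with siYAP in A431 cells are the 2 filled points, and no YAP5SA point is filled.

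The comparison of YAP5SA with the empty vector asked which genes respond to active YAP. None of the 10 genes was called, in either line or over both, although AKR1C2 in HaCaT cells was called with the replicate number as a block (-1.49 ± 0.39, FDR 0.0407). The block counted the empty vector library as replicate 1, a number that its title does not give. In A431 cells 0 of the 14673 tested genes were called, and no member had an unadjusted p under 0.05. YAP1 itself, at 124 CPM with the empty vector and 1494 to 3244 CPM with YAP5SA, was thus not called either. The lack of calls in A431 cells is therefore no measure of whether the members responded. DESeq2 called 3 genes there, and without A431 YAP5SA replicate 1, which stood apart from its triplicate, 87 were called, none of them members in either case. HaCaT cells had 13.6% of genes called (6.99% higher, 6.64% lower), and 4 members with p under 0.05 before adjustment. DESeq2 called 1 of these members there, AKR1B10. The 13.6% is a share at the FDR threshold, and the share of all genes at the unadjusted p was not computed. Taking the lines as one, 2.04% of genes (300 genes) were called, from 48 to 1367 among fits without 1 library (48 without A431 YAP5SA replicate 3, 1367 without HaCaT YAP5SA replicate 1), and 3 members (AKR1B10, TXNRD1 and GCLM) had such a p.

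The members split in HaCaT cells. AKR1B10 had 6.68 CPM with the empty vector and 4.40, 1.87 and 0.89 CPM with YAP5SA (-1.48 ± 0.52, FDR 0.0725). All 3 values lay below the control but spread widely, and without replicate 1 the value was -2.28 and was called (FDR 0.00205). AKR1C2 had 198 CPM and 68.2, 117 and 68.7 CPM (-1.23 ± 0.47, FDR 0.0922). AKR1C3 had 28.4 CPM and 13.8, 20.9 and 11.7 CPM (-0.88 ± 0.38, FDR 0.130). Both lay below the control in all 3 libraries, and both were called without replicate 2 (FDR 0.0457 and 0.0478). AKR1C1 behaved otherwise, with 65.4 CPM and 36.0, 76.1 and 34.0 CPM on both sides of the control (-0.43 ± 0.42, FDR 0.513).

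TXNRD1 had 312 CPM with the empty vector and 384, 756 and 446 CPM with YAP5SA in HaCaT cells (0.76 ± 0.32, FDR 0.128), and it was called without replicate 1 (0.94, FDR 0.0401). GCLM, at 125 CPM and 128, 197 and 140 CPM, was the other gene with all 3 libraries above the control (0.31 ± 0.24, FDR 0.382). SRXN1, at 125 CPM and 120, 185 and 135 CPM, had 1 library below it. HMOX1 had 6.27 CPM and 4.69, 16.2 and 10.6 CPM (0.74 ± 0.58, FDR 0.398). NQO1 (410.4 CPM and 324, 511 and 317 CPM) lay on both sides of the control. GCLC (132 CPM and 104, 119.5 and 93.3 CPM) lay below it in all 3 libraries (-0.33 ± 0.17, FDR 0.195). Replicate 2 held the highest value for 9 of the 10 genes, beside 35.0% of all genes over logCPM 1. It also had the most YAP1 (22243 CPM), and a link between YAP1 level and these genes was not tested.

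The A431 changes with YAP5SA ran from -0.35 ± 0.55 (AKR1B10) to 0.63 ± 0.45 (AKR1C1). That range was narrower than in HaCaT cells (-1.48 to 0.76). Even so, AKR1C1, NQO1, GCLC, GCLM and SRXN1 had the larger absolute change in A431 cells. AKR1C1 had 23.3 CPM with the empty vector and 30.7, 40.5 and 36.9 CPM with YAP5SA. NQO1 had 439 CPM and 434, 557 and 561 CPM, GCLC 151 CPM and 161, 215 and 203 CPM, and GCLM 132 CPM and 144, 205 and 194 CPM. In each of these genes replicate 1 was the lowest and lay nearest to the control. TXNRD1 had 355 CPM and 383, 522 and 492 CPM, and SRXN1 113 CPM and 128, 161 and 151 CPM. HMOX1 had 10.1 CPM and 9.98, 18.2 and 15.1 CPM. AKR1C2 had 26.3 CPM and 27.2, 38.6 and 35.3 CPM, and AKR1C3 13.4 CPM and 13.4, 10.6 and 11.6 CPM. AKR1B10 had 7.34 CPM and 5.98, 5.43 and 5.92 CPM. All 3 libraries lay above the control for 6 genes and below it for 2, beside 31.8% and 21.2% of genes. The same counts in HaCaT cells were 2 and 4, beside 31.6% and 36.7%. None of the 10 differed between the lines in its response to YAP5SA, where 0.0886% of genes (13 genes) did, although 2 had an unadjusted p under 0.05, GCLC (0.68 ± 0.24, FDR 0.135) and AKR1C2 (1.58 ± 0.72, FDR 0.219). That background was unstable, at 943 genes with DESeq2, which called neither, and from 1 to 873 without 1 library. Without A431 YAP5SA replicate 1 (873 genes), GCLC was called.

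The members tended to be high or low together within a triplicate. Replicate 1 of A431 siYAP held the highest value of all 10 genes, beside 36.9% of all genes over logCPM 1. Replicate 2 of HaCaT siYAP held it for 8 genes (43.5% of all genes), replicate 2 of A431 YAP5SA for 7 (36.0%), and replicate 2 of HaCaT YAP5SA for 9 (35.0%). The exceptions were AKR1B10 and HMOX1 in HaCaT siYAP, AKR1B10, AKR1C3 and NQO1 in A431 YAP5SA, and AKR1B10 in HaCaT YAP5SA. Counts of replicates differed beyond sampling noise in each pair, with a chi-square of 6.66 to 145 times its degrees of freedom across genes. A431 YAP5SA replicate 1 stood apart from replicates 2 and 3, at 75.7 and 70.9 beside 6.66 between the other two. Leaving out A431 YAP5SA replicate 1 called GCLC for the line difference with YAP5SA and no member for YAP5SA in A431 cells.

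**Figure D3:**
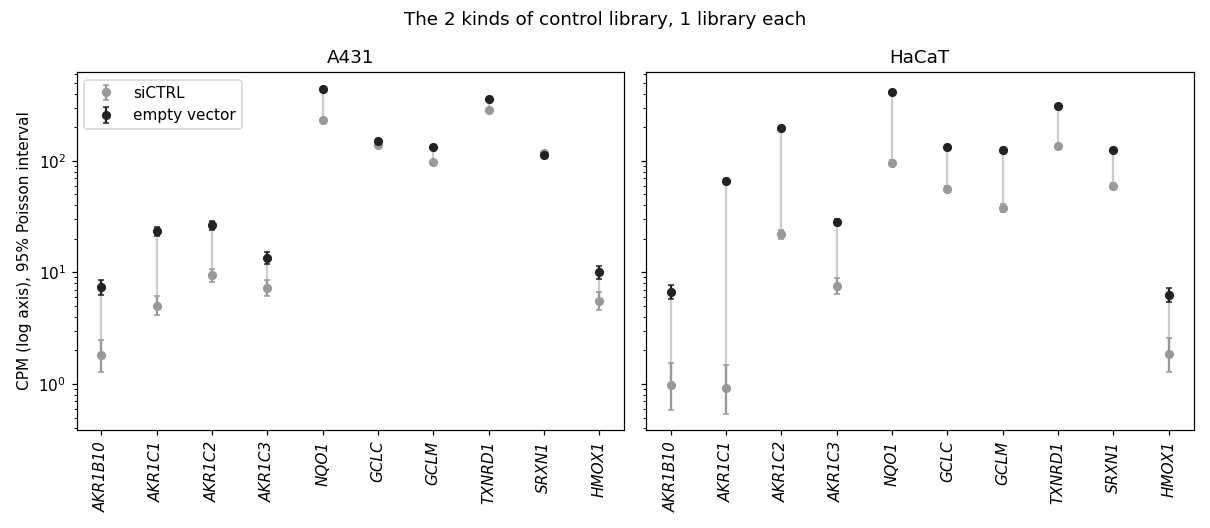
CPM (log axis) of each gene in the siCTRL and empty vector library of each line, 1 library each, with 95% Poisson intervals that cover counting error only. In A431 cells SRXN1 and GCLC are close together, while in HaCaT cells every gene is higher in the empty vector library and AKR1C1 shows the widest gap, 0.93 and 65.4 CPM.

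The 2 kinds of control library differed in these genes. Each is a single library, so no test was made, and the intervals given cover counting error only. In HaCaT cells all 10 genes were at least 2-fold higher with the empty vector than with siCTRL, beside 17.7% of genes over logCPM 1. AKR1C1 had 0.93 CPM (95% Poisson interval 0.541 to 1.49) with siCTRL and 65.4 CPM (62.6 to 68.3) with the empty vector, from 17 and 2055 counts, a 70.5-fold gap. AKR1C2 was 9.05-fold, AKR1B10 6.80-fold, NQO1 4.27-fold and AKR1C3 3.74-fold higher. The glutathione, redoxin and heme genes followed, with HMOX1 at 3.38-fold, GCLM at 3.31-fold, GCLC at 2.38-fold, TXNRD1 at 2.29-fold and SRXN1 at 2.10-fold.

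In A431 cells 3 of the 10 genes reached 2-fold, beside 4.84% of genes. They were AKR1C1 (4.62-fold), AKR1B10 (4.05-fold) and AKR1C2 (2.80-fold). NQO1 (1.90-fold), AKR1C3 (1.87-fold) and HMOX1 (1.82-fold) came next, while GCLM, TXNRD1 and GCLC stood at 1.35-fold, 1.26-fold and 1.09-fold, and SRXN1 at 0.963-fold. The AKR1C rises with siYAP are thus measured from the lower of the control libraries, and the HaCaT changes with YAP5SA from the higher of them. With 1 library each, vector, siRNA, handling and library cannot be told apart.

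The treated libraries allow a comparison with 3 replicates on each side, YAP5SA against siYAP, which was added after the data were seen and in which delivery and YAP cannot be told apart. In HaCaT cells 7 of the 10 genes were called higher with YAP5SA and none lower, beside 31.5% of genes called higher and 60.0% either way. They were AKR1C1 (3.29 ± 0.35, FDR 2.35e-06), GCLM (2.53 ± 0.18), HMOX1 (2.20 ± 0.42), SRXN1 (1.72 ± 0.15), TXNRD1 (1.59 ± 0.22), NQO1 (1.58 ± 0.19) and GCLC (1.28 ± 0.12). In each of the 7 the lowest YAP5SA library lay above the highest siYAP library, as in 38.7% of genes over logCPM 1. AKR1C2 (-0.13 ± 0.35) and AKR1C3 (-0.14 ± 0.28) did not follow AKR1C1, and their sum with AKR1C1 was not called (0.37 ± 0.34, FDR 0.345).

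In A431 cells 4 genes were called in the same comparison, beside 34.6% of genes (20.0% higher, 14.6% lower): NQO1 (1.50 ± 0.19, FDR 8.86e-05), GCLM (1.18 ± 0.17, FDR 0.000164) and GCLC (0.60 ± 0.12, FDR 0.002) higher, and AKR1C3 (-0.85 ± 0.28, FDR 0.0326) lower. The AKR1C3 call was lost in 5 of the 6 fits that left out 1 library, all but the one without YAP5SA replicate 1 (FDR up to 0.105). With siCTRL and the empty vector as 2 controls the calls of AKR1C3 (FDR 0.18) and GCLC (FDR 0.092) were lost. No control enters this comparison, so that setting acted through a wider SE. Summed with AKR1C1 and AKR1C2, AKR1C3 was not called (-0.33, FDR 0.473). AKR1C1 (0.26 ± 0.31, FDR 0.539) and HMOX1 (-0.47 ± 0.38, FDR 0.359), both called in HaCaT cells, were not called in A431 cells.

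The lines themselves differed in these genes, and more so in the siRNA arm. With siYAP, 8 of the 10 genes were higher in A431 than in HaCaT cells and 1 was lower, beside 31.7% of genes called higher, 26.9% lower and 58.5% either way. HMOX1 was 8.72-fold higher (3.12 ± 0.43, FDR 2.60e-05) and AKR1C1 6.07-fold (2.60 ± 0.34, FDR 1.57e-05). AKR1B10 (1.74 ± 0.42), GCLM (1.57 ± 0.17), GCLC (1.56 ± 0.12), SRXN1 (1.44 ± 0.15) and TXNRD1 (1.24 ± 0.22) lay between 2.36-fold and 3.33-fold higher. In these 7 genes the 3 A431 libraries all lay above the 3 HaCaT libraries, as in 42.4% of genes over logCPM 1, and each call was kept without any 1 library. NQO1 (0.51 ± 0.19, FDR 0.0291) lost its call without A431 siYAP replicate 1 (FDR 0.156), HaCaT siYAP replicate 1 (FDR 0.0767) or HaCaT siYAP replicate 3 (FDR 0.163). AKR1C2 (-0.85 ± 0.36, FDR 0.0492) lost it without any A431 siYAP replicate (FDR 0.0538 to 0.122), and without HaCaT siYAP replicate 2 it stood at -0.15 (FDR 0.594). AKR1C3 was not called (0.33 ± 0.28, FDR 0.320), but it was called without HaCaT siYAP replicate 2.

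Because AKR1C1 shares sequence with AKR1C2, the line difference was also computed on their sum, in which AKR1C2 holds most of the HaCaT counts. When the counts of AKR1C1 and AKR1C2 were summed, the sum was not called and its sign was the opposite one (-0.26 ± 0.36, FDR 0.533), and with AKR1C3 added it stood at -0.16 ± 0.34 (FDR 0.697). AKR1C4, another gene of the family, was at 0 in all 16 libraries.

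With YAP5SA, 3 of the 10 genes differed between the lines, beside 50.2% of genes (26.6% higher, 23.5% lower): AKR1B10 (1.27 ± 0.40, FDR 0.0158) and GCLC (0.87 ± 0.12, FDR 4.29e-05) higher in A431 cells, and AKR1C2 (-1.33 ± 0.36, FDR 0.00679) lower. With the replicate number as a block NQO1 joined them. With siCTRL and the empty vector as 2 controls GCLC was the 1 gene called. That setting acted through a wider SE (AKR1C2 -1.33 ± 0.62), since no control enters the comparison. Without HaCaT YAP5SA replicate 2, 5 genes were called. SRXN1, GCLM, TXNRD1 and HMOX1, all called higher in A431 cells with siYAP, stood at 0.00 ± 0.15, 0.22 ± 0.16, -0.18 ± 0.22 and 0.46 ± 0.38.

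The change of the line difference between the arms was itself tested, also after the data were seen. For 6 of the 10 genes the A431 excess was larger with siYAP than with YAP5SA, and for none smaller, beside 21.3% of genes called in that direction and 40.2% either way. The 6 were AKR1C1 (3.03 ± 0.46, FDR 0.000173), HMOX1 (2.66 ± 0.57, FDR 0.00213), SRXN1 (1.44 ± 0.21, FDR 0.000132), TXNRD1 (1.42 ± 0.31, FDR 0.00249), GCLM (1.35 ± 0.23, FDR 0.000512) and GCLC (0.69 ± 0.17, FDR 0.00561). All 10 values were above 0, with a median of 1.03 beside -0.03 over all genes. NQO1 (0.08 ± 0.27) was the nearest to 0. The sum of AKR1C1 and AKR1C2, mostly AKR1C2 in HaCaT cells, stood at 0.67 ± 0.51 (FDR 0.311), and whether read assignment bears on the AKR1C1 value was not tested.

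**Figure D4:**
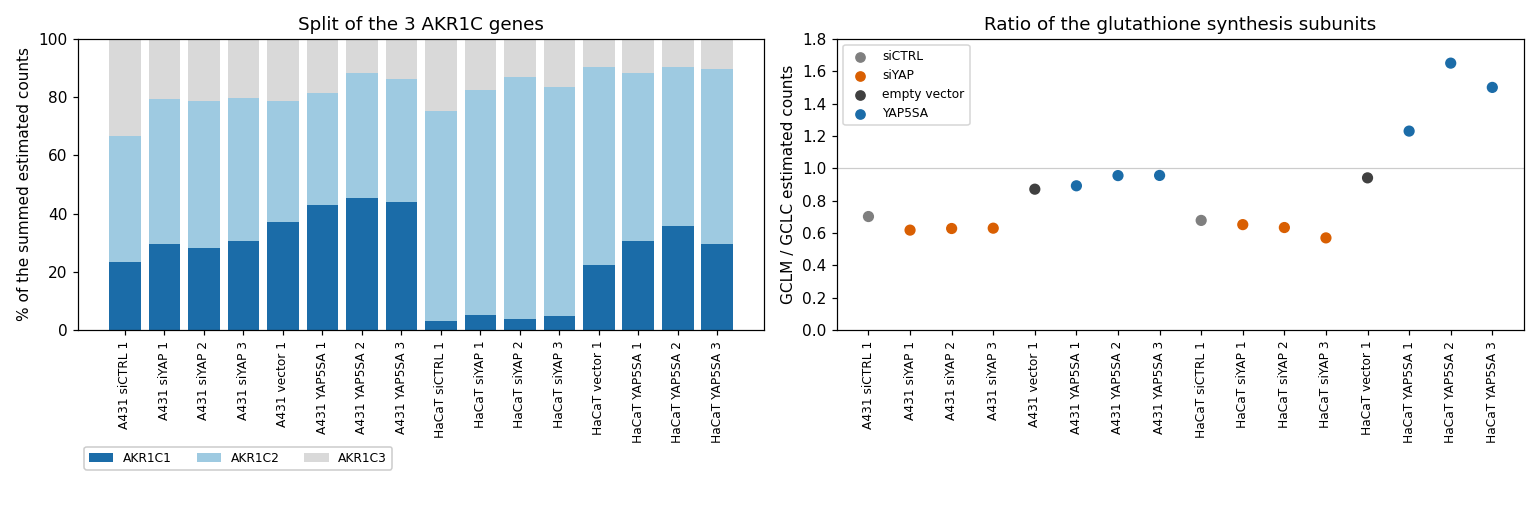
Left, share of each AKR1C gene in their summed estimated counts in each library (stacked bars, %). Right, GCLM over GCLC estimated counts in each library, coloured by treatment; the 8 siRNA libraries lie between 0.57 and 0.702 and the 8 vector libraries between 0.871 and 1.65.

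The AKR1C genes did not keep a fixed proportion. AKR1C1 took 23.3% (exact 95% binomial interval 19.4 to 27.5) of the summed AKR1C counts in A431 siCTRL and 28.1% to 30.5% with siYAP. It took 37.0% with the empty vector and 43.1% to 45.2% with YAP5SA. In HaCaT cells it took 3.0% (1.79 to 4.84) with siCTRL, 3.85% to 5.23% after siYAP, 22.4% in the empty vector library and 29.7% to 35.6% with YAP5SA. The 4 vector libraries of each line lay above its 4 siRNA libraries. The share is a split made by the read assignment between near copies, and the intervals cover counting error only.

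The subunits of the glutathione enzyme shifted against each other in the same way. The ratio of GCLM to GCLC counts was 0.702 in A431 siCTRL and 0.618, 0.628 and 0.63 with siYAP. It was 0.871 with the empty vector and 0.892, 0.955 and 0.956 with YAP5SA. In HaCaT cells it was 0.678 with siCTRL, 0.652, 0.634 and 0.57 with siYAP, 0.941 with the empty vector and 1.23, 1.65 and 1.5 with YAP5SA. The ratio of counts does not correct for transcript length, so that it can be compared between libraries only.

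None of the 11 regulators of the pathway was called with siYAP in either line (5.60% and 5.67% of genes were), with an unadjusted p under 0.05 for 2 in A431 and 0 in HaCaT cells. NFE2L2 had 119 CPM in the siCTRL library beside 100.2, 85.6 and 88.0 CPM after siYAP in A431 cells (-0.38 ± 0.13, FDR 0.104), and 142 CPM against 128, 138 and 128 CPM in HaCaT cells (-0.11 ± 0.13, FDR 0.696). KEAP1 stood at 0.06 ± 0.14 and -0.13 ± 0.14. NRF2 is controlled mainly through the stability of the protein, which these data do not measure.

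With YAP5SA in HaCaT cells 4 of the 11 regulators were called, all higher, beside 6.99% of genes called higher. They were the small MAF genes MAFG (1.30 ± 0.22, FDR 0.00559), MAFK (1.21 ± 0.27, FDR 0.0139) and MAFF (1.07 ± 0.27, FDR 0.0225), and NFE2L3 (1.32 ± 0.27, FDR 0.0102), a relative of NRF2. MAFG had 15.3 CPM with the empty vector and 31.6, 41.9 and 39.7 CPM with YAP5SA, and was also called over both lines (0.82 ± 0.15, FDR 0.0255). NFE2L3 had 38.7 CPM and 86.1, 118 and 86.7 CPM. All 3 HaCaT YAP5SA libraries lay above the single control in both genes, as in 31.6% of genes over logCPM 1. NFE2L2 itself stood at 0.30 ± 0.13 in A431 and -0.35 ± 0.13 in HaCaT cells (FDR 0.803 and 0.0842). SQSTM1, which binds KEAP1, had the largest change of the list with siYAP in A431 cells (0.91 ± 0.41, FDR 0.217) and was not called in any of the 4 comparisons. NFE2L1, RBX1 and CUL3 were not called in them either.

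Between the arms NFE2L3 and BACH1, the repressor at the same sites, differed the most in HaCaT cells. NFE2L3 had 10.1 CPM in the siCTRL library and 8.16 to 14.2 CPM after siYAP, all below the vector libraries (YAP5SA against siYAP 3.10 ± 0.19, FDR 2.30e-08). BACH1 had 320 CPM in the siCTRL library and 359 to 386 CPM after siYAP, but 147 CPM with the empty vector and 148, 146 and 125 CPM with YAP5SA. YAP5SA libraries lay below siYAP libraries by -1.40 ± 0.15 (FDR 2.39e-06), and the change with siYAP or with YAP5SA against its own control was not called (0.20 ± 0.21 and -0.07 ± 0.20). In A431 cells BACH1 ran from 61.8 to 119 CPM, and YAP5SA and siYAP did not differ beyond the threshold (-0.37 ± 0.15, FDR 0.064).

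**Figure D5:**
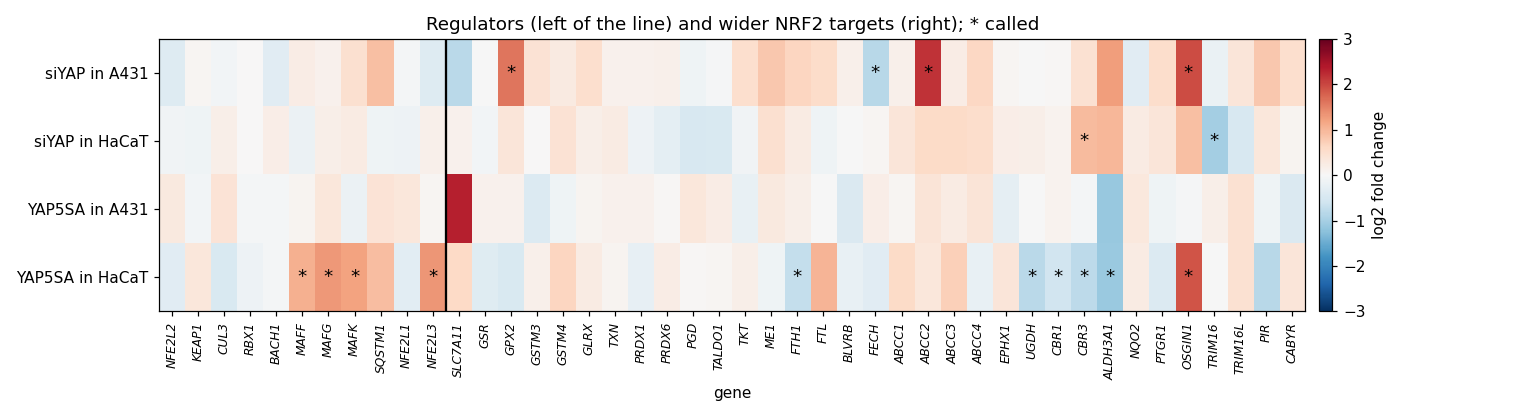
Log2 fold change (colour) of 11 regulators and 33 further targets in the 4 comparisons with a control; a star marks a called gene. The siYAP rows hold stars among targets only, and the HaCaT YAP5SA row holds 4 stars among the regulators.

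Of 35 further NRF2 targets 33 were tested, since MGST1 was at 0.0918 CPM or lower and NR0B1 at 0 in every library. With siYAP in A431 cells 3 were called higher and 1 lower, beside 5.60% of genes called either way and 1.81% higher. The 3 were ABCC2, an exporter of glutathione conjugates (2.16 ± 0.44, FDR 0.0146), OSGIN1, an oxidative stress response gene (1.96 ± 0.52, FDR 0.045), and the glutathione peroxidase GPX2 (1.61 ± 0.20, FDR 0.00109). FECH, which inserts iron into heme, was the lower one (-0.83 ± 0.21, FDR 0.0355). GPX2 had 24.6 CPM in the siCTRL library beside 84.5, 70.9 and 69.7 CPM after siYAP. FECH had 25.9 CPM and 17.0, 13.9 and 12.6 CPM. All 3 siYAP libraries lay above the single control for GPX2, as in 36.5% of genes over logCPM 1. For FECH all 3 lay below it, as in 38.1%.

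With siYAP in HaCaT cells the carbonyl reductase CBR3 was called higher (0.95 ± 0.20, FDR 0.0166), with 6.39 CPM against 13.0, 12.8 and 11.1 CPM. TRIM16, an E3 ligase, was called lower (-1.02 ± 0.17, FDR 0.00335), with 367 CPM against 206, 151 and 185 CPM. For both genes the siYAP values lay between the siCTRL library and the empty vector library, which had CBR3 at 33.9 CPM and TRIM16 at 150.7 CPM. Over both lines 7 of the 33 were called higher and 1 lower, beside 5.30% of genes called higher and 13.0% either way, with a median of 0.21 beside 0.04 over all genes. No further target was called with YAP5SA in A431 cells.

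With YAP5SA in HaCaT cells 1 further target was called higher, OSGIN1 (1.88 ± 0.48, FDR 0.0228), and 5 lower, beside 13.6% of genes called either way and 6.64% lower. ALDH3A1, an aldehyde dehydrogenase (-1.11 ± 0.34, FDR 0.0467), UGDH, which makes glucuronic acid (-0.81 ± 0.17, FDR 0.0104), and CBR3 (-0.78 ± 0.17, FDR 0.0141) fell the most, and CBR1 and FTH1 were the other two. UGDH had 206 CPM with the empty vector and 134, 101 and 117 CPM with YAP5SA. All 3 lay below the single control, as in 36.7% of genes over logCPM 1.

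For each gene the genes most like it across libraries were sought by Pearson correlation of log2 CPM, taken within A431 and within HaCaT cells over 8 libraries each and ranked by the lower of the pair of values. The libraries share the arms, so that the correlations describe these libraries and carry no test. GCLM was most like CFL1 (0.993), ILF2 (0.992) and SBDS (0.991), and GCLC like PSMA3 (0.989), CDC123 (0.986) and PSMD14 (0.985). SRXN1 was most like EIF3I (0.982), SFXN4 (0.975) and C1QBP (0.969), and NQO1 like LIN54 (0.98), SUB1 (0.976) and GLA (0.976). AKR1C1 and TXNRD1 shared ANXA5 among their nearest genes (0.952 and 0.962), beside WDR47 (0.958) and SVEP1 (0.954) for AKR1C1 and LAMA3 (0.958) and PELO (0.948) for TXNRD1. AKR1C2 and AKR1C3 shared TERF2IP (0.902 and 0.891), beside FAM35A (0.945) and GNG5 (0.898) for AKR1C2 and IER3IP1 (0.849) and ZNF430 (0.828) for AKR1C3. HMOX1 lay nearest to HDAC9 (0.921), CSF2 (0.90) and SLC20A1 (0.899). AKR1B10 had the loosest matches, CRYZ (0.858), BMP7 (0.831) and G2E3 (0.816).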

How the data were processed

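RNA-seq of 16 libraries was used. According to the processing notes and the study's methods, the authors trimmed paired reads from 100 to 75 bp, estimated gene counts on RefSeq genes with RSEM (1.2.11 in the notes, build hg19), filtered low counts, scaled by TMM and tested with edgeR. The deposited values are the RSEM estimated counts, neither scaled nor filtered. Here they were rounded and fitted in R 4.3.3 with edgeR 4.0.16 (quasi-likelihood test, 1 model of 8 groups, TMM factors 0.9137 to 1.074, 8 residual degrees of freedom, prior count 0.125) over genes with a mean above 10 counts, and adjusted over all of them. Groups came from the sample labels. limma 3.58.1 and DESeq2 1.42.0 served alternatives, and Python 3.11.15 sequences and figures. With 3 libraries against 1 an exact permutation test cannot go below p = 0.25.

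In simulated data with 200 of 14591 genes changed by siYAP, 55% of 2-fold changes were recovered in A431, 60% in HaCaT cells and 83% over both lines. At 4-fold the shares were 95%, 94% and 98%, with 12, 7 and 6 false calls. For YAP5SA, with no gene changed, 0 were called. The changed genes were drawn from genes with high mean counts, and the siRNA and vector arms of a line had the same base level. Control libraries were given the same gene-wise spread as treated ones. The false calls therefore do not test the spread between control cultures, which was not measured. The shares do not carry over to controls resting on few counts, such as AKR1C1 in HaCaT siCTRL (17 counts).

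The members and lists were chosen with earlier results of these data known. Named genes were the 10 members, YAP1, EGFR, the regulators, AKR1C4 and AKR1B15, the 3 largest called rises and falls among further targets in each comparison with a control, and the 3 genes most like each member. BACH1 and NFE2L3 were described at length, and SLC7A11, AKR1B1, CBR1 and FTH1 named, after their values were seen. Same-numbered YAP5SA libraries of both lines deviated together (correlations 0.363, 0.158 and 0.135), which is a hint from the data, so that blocked values stand beside that line comparison. Same-numbered siYAP libraries of both lines stood at 0.0201, 0.113 and 0.209. In the siYAP line comparison AKR1C2 lost its call under the block (-0.68 ± 0.28). Genome positions are GRCh38.p14, not the build of the counts. Of the further targets, 1 listed gene is not reported here.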

Additional observations from a re-analysis of the deposited data

Results flagged for a closer look

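The difference between A431 and HaCaT cells changed with the arm for 6 of the 10 genes, by a test of that change itself (edgeR quasi-likelihood interaction, 3 libraries in each of 4 groups). The A431 minus HaCaT log2 difference with siYAP was larger than that with YAP5SA by 3.03 for AKR1C1, 2.66 for HMOX1, 1.44 for SRXN1, 1.42 for TXNRD1, 1.35 for GCLM and 0.687 for GCLC. All 6 kept their call without any 1 of the 12 treated libraries, with the highest FDR at 0.0177 (GCLC). AKR1C1 (3.02 ± 1.23, FDR 0.0871) and GCLC (0.686 ± 0.328, FDR 0.140) were not called with siCTRL and the empty vector as 2 controls. No control enters this comparison, so that setting left the values nearly unchanged and widened the SE. The sum of AKR1C1 and AKR1C2 was not called either (0.67, FDR 0.311). Delivery by siRNA or vector and the level of YAP change together between the arms and cannot be told apart.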

How the results depend on the processing

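Of 72 results on single genes 34 were called, and 19 of these kept direction and call in every alternative. Among the called, 2 changed sign: AKR1C1 with siYAP over both lines with siCTRL and the empty vector as 2 controls (-0.826), and AKR1C1 between the lines with siYAP when summed with AKR1C2 (-0.263) or with both other AKR1C genes (-0.16). The cause of the first was not tested. The sums hold mostly AKR1C2 in HaCaT cells.

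Members called with siYAP in A431 cells (2) were 4 with DESeq2 and with the likelihood ratio test, 5 with each line fitted alone, 0 with 2 controls, 1 with either sum of AKR1C counts (merged rows) and 1 without any 1 library. With siYAP in HaCaT cells (0) they were 2 with DESeq2, the likelihood ratio test, no filter or the replicate block, 1 with more than 10 counts in every library, 3 with 2 controls (GCLC, GCLM and SRXN1, lower) and 1 without any 1 library. Over both lines (3) there was 1 with all AKR1C counts summed, and 3 without any 1 library. With 2 controls the count was also 3, but of NQO1, GCLC and GCLM in place of the AKR1C genes. With YAP5SA in HaCaT cells (0) there was 1 with DESeq2, 2 controls or the block, 2 with the likelihood ratio test and 0 to 2 without 1 library. Over both lines (0) TXNRD1 was called with 2 controls, and 0 to 1 without 1 library (AKR1B10 without HaCaT replicate 1). The YAP5SA difference between lines (0) gave 0 to 1 without 1 library. A431 against HaCaT with YAP5SA (3) gave 1 with 2 controls and 3 to 5 without 1 library, and YAP5SA against siYAP in A431 (4) gave 2 with 2 controls. No control enters either of these comparisons, so the 2 controls acted there through the SE.

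Values not called changed sign most with 2 controls. With siYAP in HaCaT cells they became -1.38 (AKR1B10), -2.74 (AKR1C1), -0.248 (AKR1C2), -0.0843 (AKR1C3), -0.974 (NQO1), -0.355 (TXNRD1) and -0.859 (HMOX1). With YAP5SA they became 0.333 (AKR1B10) and 0.199 (AKR1C3) in A431, and 0.545 (AKR1C1), 0.601 (NQO1) and 0.165 (GCLC) in HaCaT cells. Under the replicate block SRXN1 with siYAP in A431 stood at -0.0493, HMOX1 with siYAP in HaCaT at -0.221 and AKR1B10 with YAP5SA in A431 at 0.0707. AKR1C3 with YAP5SA in A431 stood at 0.37 in the sum. Without 1 library HMOX1 with siYAP in HaCaT ran from -0.119 to 0.59 and NQO1 with YAP5SA in HaCaT from -0.353 to 0.0264. Of 18 same-numbered pairs of libraries 7 had a correlation over 0.1 (-0.0435 to 0.363). Outside the YAP5SA pairs the highest was 0.209, for replicate 3 of A431 siYAP and HaCaT siYAP. These values do not settle whether the numbers name shared batches, and the block is given as a setting. The titles of the empty vector libraries and of HaCaT siCTRL hold no replicate number. The block counted them as replicate 1, so blocked changes against these controls rest on an assumed pairing.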

Other observations

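SLC7A11, the cystine carrier that feeds glutathione synthesis, spread widely within a triplicate. With YAP5SA in A431 cells it had 24.5 CPM in replicate 1 and 243 and 196 CPM in replicates 2 and 3, beside 30.6 CPM with the empty vector (2.34 ± 0.91, FDR 0.803, edgeR quasi-likelihood test). The HaCaT values were 24.7 CPM in the siCTRL library and 22.1, 35.1 and 24.4 CPM after siYAP, but 138 CPM with the empty vector and 145, 311 and 168 CPM with YAP5SA. As with the members, replicate 2 was the highest of both HaCaT triplicates.

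AKR1B15, the near copy of AKR1B10, was at 1.20 CPM or lower in every library. AKR1B1, the other gene of that branch, rose with siYAP in A431 (0.62 ± 0.14, FDR 0.0222) and in HaCaT cells (0.58 ± 0.14, FDR 0.0307), where AKR1B10 was not called. It had 100.1 CPM in the siCTRL library and 159, 155 and 148 CPM after siYAP in A431 cells, and 38.4 CPM and 62.7, 54.7 and 54.3 CPM in HaCaT cells. The empty vector libraries, at 157 and 61.9 CPM, lay within the range of the siYAP libraries of their line.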
